A study of Mus musculus with 7 samples.

Results

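The structural noncoding RNAs *Rn18s-rs5*, *Malat1* and *Neat1* were followed in muscle fibers of mouse fetuses at E17.5. They are 3 of the 31531 genes with deposited values, and were picked by name with their abundance in these libraries already known, so the WT against dyW differences below are descriptions without a test. *Rn18s-rs5* made up 4.78% to 45.1% of the reads in WT and 0.0461% to 4.76% in the libraries labelled dyW. *Malat1* spanned 0.00860% to 0.510% in WT and 0.0477% to 0.795% in the other group, and *Neat1* spanned 0.00224% to 0.137% and 0.000716% to 0.485%. For *Malat1* and *Neat1*, WT1 and dyW1 held the highest values of the 7 libraries, 1 from each genotype.

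The 18S ribosomal RNA is the RNA backbone of the small ribosomal subunit. It is transcribed by RNA polymerase I, cut out of a longer precursor in the nucleolus, and carries no poly(A) tail in its mature form. *Malat1* is a long noncoding RNA that stays in the nucleus and gathers in nuclear speckles, the bodies that store splicing factors, and it is among the most abundant long noncoding RNAs of mammalian cells. *Neat1* is the scaffold of paraspeckles, nuclear bodies that hold RNA-binding proteins, and is made as a short polyadenylated form and a long form. The long form of *Neat1* and *Malat1* end without a classical poly(A) tail: RNase P cuts a tRNA-like RNA off their 3′ end, and a genome-encoded A-rich tract folds into a triple helix that protects what is left.

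Muscle fibers came from the epaxial muscles of WT fetuses (4 libraries) and of fetuses labelled dyW (3 libraries). The methods describe dyW mutants as homozygous for dyW, a disrupted *Lama2* allele on the C57BL/6 background that models LAMA2-related congenital muscular dystrophy in mice. Heterozygous crosses gave both groups, and neither the number of fetuses behind each library nor their sex is given in the labels. After dispase and collagenase digestion the fibers were kept on a strainer without sorting, so other cells of the muscle could remain. Libraries were made with SMART-seq2, which copies RNA into full-length cDNA from an oligo-dT primer and amplifies it by PCR without molecular identifiers. Values are normalized counts, that is, reads on a gene divided by 1 size factor per library, or shares of the reads counted on genes.

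Depth and composition differed between the groups. Reads on genes ranged from 470804 to 2220813 in WT and from 3663905 to 18297106 in the libraries labelled dyW, so that 1 read was worth 2.05 to 5.33 normalized counts in WT and 0.0974 to 0.488 in the other group. Shares are given with a 95% Wilson interval, which covers counting error only, since PCR reads without molecular identifiers are not independent molecules. The targeted gene *Lama2*, which encodes laminin α2, stood at 90.6 to 111 normalized counts in WT, at 4.29 in dyW1 and at 6.07 in dyW2. It stood at 139.7 in the third library of that group, against its label. That library is therefore called the library labelled dyW3. Mitochondrial genes took 13.9% to 52.8% of the reads in WT and 3.30% to 36.4% in the libraries labelled dyW. The median log2 difference of all tested genes, libraries labelled dyW minus WT, was −1.99 with the deposited scaling, −1.24 with the same total for every library and 0.06 after quantile normalization, so each difference is best read beside these shifts.

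In the GENCODE M39 annotation of GRCm39, the build of the files, the longest transcript of each gene is a single exon that fills the gene. *Rn18s-rs5* (ENSMUSG00000119584) is an rRNA gene of 1849 bases on chromosome 17, at 40157244 to 40159092 on the plus strand. *Malat1* (ENSMUSG00000092341) is a long noncoding RNA gene of 7886 bases on chromosome 19, at 5845717 to 5853602 on the minus strand. *Neat1* (ENSMUSG00000092274) lies on the same strand of chromosome 19 at 5874736 to 5897132, with 22397 bases. The annotation lists 1 transcript for *Rn18s-rs5*, 23 for *Malat1* and 24 for *Neat1*, and the values do not separate the short form of *Neat1* from the long one. It also lists 3 other genes that overlap the span of *Malat1* and 4 that overlap that of *Neat1* in whole or in part, none of which has a row of its own in the files. The strand setting of the counting is not given in the sources used here, so reads of those on the opposite strand could be counted in. The ribosomal DNA is repeated in near-identical copies and only uniquely mapped reads were counted, so the value of *Rn18s-rs5* is uncertain as a measure of all 18S RNA.

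Stretches at or near the 3′ ends are shown because the SMART-seq2 primer needs a run of A. Those of *Neat1* and *Rn18s-rs5* are the last bases of the annotated transcript, whereas that of *Malat1* lies inside it. Each is 30 bases, 5′ to 3′ on the gene's strand in GRCm39, with capitals for an 11-base stretch, the longest end of the *Neat1* transcript that also occurs in *Malat1*. It was chosen after the sequences were seen.
Malat1, chr19:5846010-5846039, minus strand: ttccctagctttaaaaaaaAAAAAGCAAAA
Neat1, chr19:5874736-5874765, minus strand: gagaacgaacgtgagcaggAAAAAGCAAAA
Rn18s-rs5, chr17:40159063-40159092, plus strand: tccgtaggtgaacctgcggaaggatcatta
The stretch AAAAAGCAAAA, searched on both strands, closes the annotated *Neat1* transcript and sits 293 bases before the annotated end of *Malat1*. *Malat1* holds 1 further match on the opposite strand, and *Rn18s-rs5* holds 0 on either strand. Among the longest transcripts of other genes with 0.8 to 1.25 times the length, 0.865% of 9138 hold it at the length of *Rn18s-rs5*, 5.04% of 2937 at that of *Malat1* and 11.6% of 43 at that of *Neat1*. A small RNA gene of 56 bases, *Gm55522*, directly follows *Neat1* on the same strand, at 5874680 to 5874735.

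The longest runs of A inside the annotated transcripts are shown next, with the run in capitals.
Malat1, chr19:5846001-5846030, minus strand: tttAAAAAAAAAAAAgcaaaagacgctggt
Neat1, chr19:5885942-5885971, minus strand: tatAAAAAAAccttcatgaggacggttatg
Rn18s-rs5, chr17:40158055-40158084, plus strand: ttgAAAAAAttagagtgttcaaagcaggcc
The longest run was 12 bases in *Malat1*, where it overlaps the shared stretch, 7 in *Neat1* and 6 in *Rn18s-rs5*. A run of 8 or more occurs in 60.8% of transcripts of the length of *Malat1*, 76.7% at that of *Neat1* and 23.3% at that of *Rn18s-rs5*. These are features of the reference only, and whether they bear on the reads of these RNAs was not tested.

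*Rn18s-rs5*, the 18S rRNA gene, differed between libraries by orders of magnitude. WT1 to WT4 held 242590, 508143, 217686 and 2498350 normalized counts of it. The other group held 66649.5 in dyW1, 1068 in dyW2 and 8615 in the library labelled dyW3. Every WT library lay above every library labelled dyW on this scale, and the mean log2(normalized count + 1) was lower by −5.90 in the second group (SE 1.31, n = 4 and 3), against the median of −1.99 for all tested genes. In bulk samples, fewer cells of a type and less RNA per cell cannot be told apart.

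As a share, which needs no size factor, *Rn18s-rs5* took 9.67%, 12.8%, 4.78% and 45.1% of the reads in WT1 to WT4. It took 4.76% in dyW1, 0.0461% in dyW2 and 0.482% in the library labelled dyW3. WT3 and dyW1 are neighbours in this order and their intervals overlap, at 4.75% to 4.81% and 4.75% to 4.77%, so the gap between the groups seen in normalized counts narrows to nothing between those libraries. The mean was 18.1% ± 18.3 (SD, n = 4) against 1.76% ± 2.61 (SD, n = 3), with an SD above the mean in both groups. It ranked first among all genes in WT4, second in WT2 and dyW1, and only at place 167 in dyW2.

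The spread within a genotype was wide for this RNA. The highest share was 9.43 times the lowest in WT and 103 times the lowest in the libraries labelled dyW. In WT4, where *Rn18s-rs5* alone gave 793994 reads, 967687 reads remained for all other genes. With mitochondrial genes set aside, *Rn18s-rs5* held 11.2%, 25.3%, 10.1% and 65.1% of the remaining reads in WT1 to WT4, and 4.92%, 0.0726% and 0.551% in the libraries labelled dyW. On that denominator the lowest WT library lay above the highest of the other group. Leaving out any 1 library kept the log2 difference of the normalized counts between −7.39 and −4.41, with −5.91 without the library labelled dyW3.

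**Figure D1:**
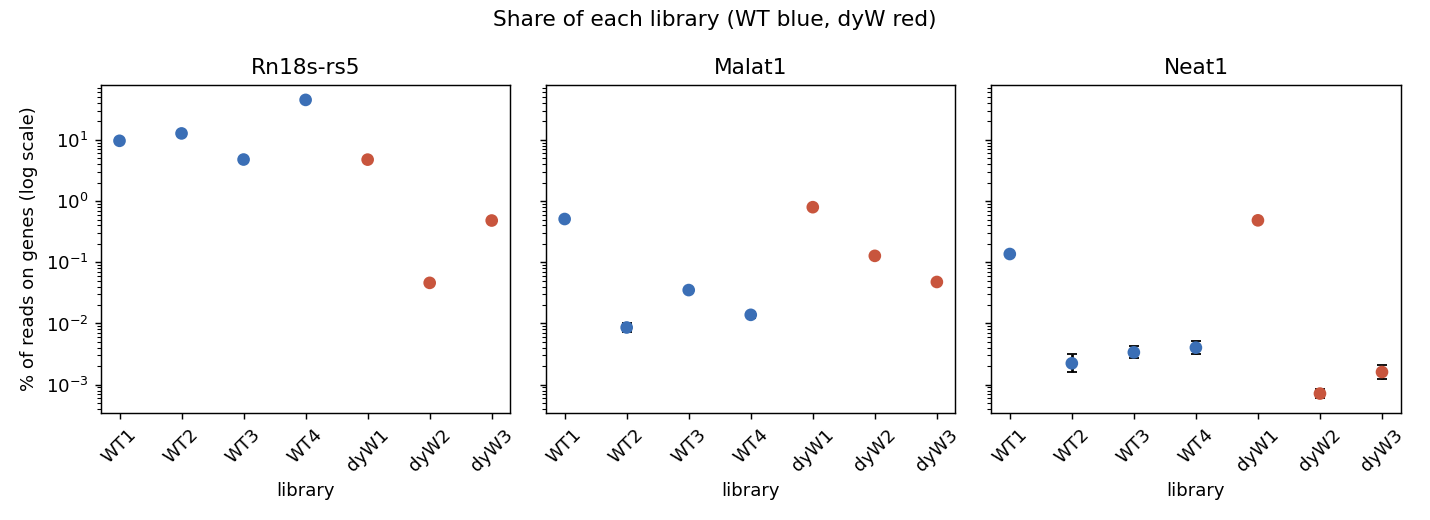
Share of each library's reads on genes taken by *Rn18s-rs5*, *Malat1* and *Neat1* (% on a log scale, 1 point per library, WT blue and libraries labelled dyW red, bars the 95% Wilson interval of counting error). *Rn18s-rs5* runs from 45.1% in WT4 to 0.0461% in dyW2, while the highest *Malat1* and *Neat1* shares are those of dyW1 and WT1.

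*Rn18s-rs5* did not keep a fixed ratio to the mitochondrial 16S rRNA, *mt-Rnr2*, the RNA of the large subunit of the mitochondrial ribosome. There were 0.973, 1.15, 0.530 and 3.41 reads of *Rn18s-rs5* for each read of *mt-Rnr2* in WT1 to WT4. The ratio was 4.78 in dyW1, 0.0153 in dyW2 and 1.17 in the library labelled dyW3. The libraries labelled dyW thus held both the highest and the lowest ratio of the 7, and the WT values lay between them.

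*Malat1*, the speckle-associated RNA, showed no separation of the genotypes. WT1 to WT4 held 12789, 342, 1602 and 768 normalized counts of it. The values were 11133 in dyW1, 2949 in dyW2 and 853 in the library labelled dyW3. WT1 was the highest and WT2 the lowest of the 7, so that the WT libraries enclosed all of the others. WT averaged 3875 ± 5966 normalized counts (SD, n = 4) and the other group 4979 ± 5432 (SD, n = 3), a difference far smaller than either SD.

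In shares the order of the *Malat1* values changed, with dyW1 above WT1 and the library labelled dyW3 above WT3, both the reverse of the normalized counts. *Malat1* took 0.510%, 0.00860%, 0.0352% and 0.0139% of the reads in WT1 to WT4, and 0.795% in dyW1, 0.127% in dyW2 and 0.0477% in the library labelled dyW3. No neighbours in this order had overlapping intervals. The library labelled dyW3 lay above WT2, WT3 and WT4 but below WT1. On the log2 scale the difference was 0.99 (SE 1.24) in normalized counts and 2.15 in CPM, which are shares scaled to a common total. The first fell to 0.06 without dyW1 and rose to 2.02 without WT1 and to 1.91 without the library labelled dyW3, so 1 library of either genotype set much of its size.

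*Neat1*, the paraspeckle scaffold, was likewise highest in WT1 and dyW1. WT1 to WT4 held 3428, 89.0, 154 and 223 normalized counts of it. The values were 6788 in dyW1, 16.6 in dyW2 and 28.8 in the library labelled dyW3. The last 2 lay below every WT library and dyW1 lay above every WT library. WT averaged 974 ± 1637 (SD, n = 4) and the other group 2278 ± 3906 (SD, n = 3), whereas the medians ran the opposite way, at 189 and 28.8.

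The direction of the *Neat1* difference depended on the scale and on single libraries. The log2 difference of the normalized counts was −1.08 (SE 2.07), which is above the median of −1.99 for all tested genes, and the difference of log2 CPM was 0.04. Without dyW1 the first became −3.81, and without WT1, dyW2 or the library labelled dyW3 it became 0.06, 0.48 and 0.10. *Neat1* rested on few reads in most libraries: 643, 33, 75 and 71 in WT1 to WT4, 69661 in dyW1, 131 in dyW2 and 59 in the library labelled dyW3. Among the shares, WT4 and WT3, WT3 and WT2, and WT2 and the library labelled dyW3 were neighbours with overlapping intervals.

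**Figure D2:**
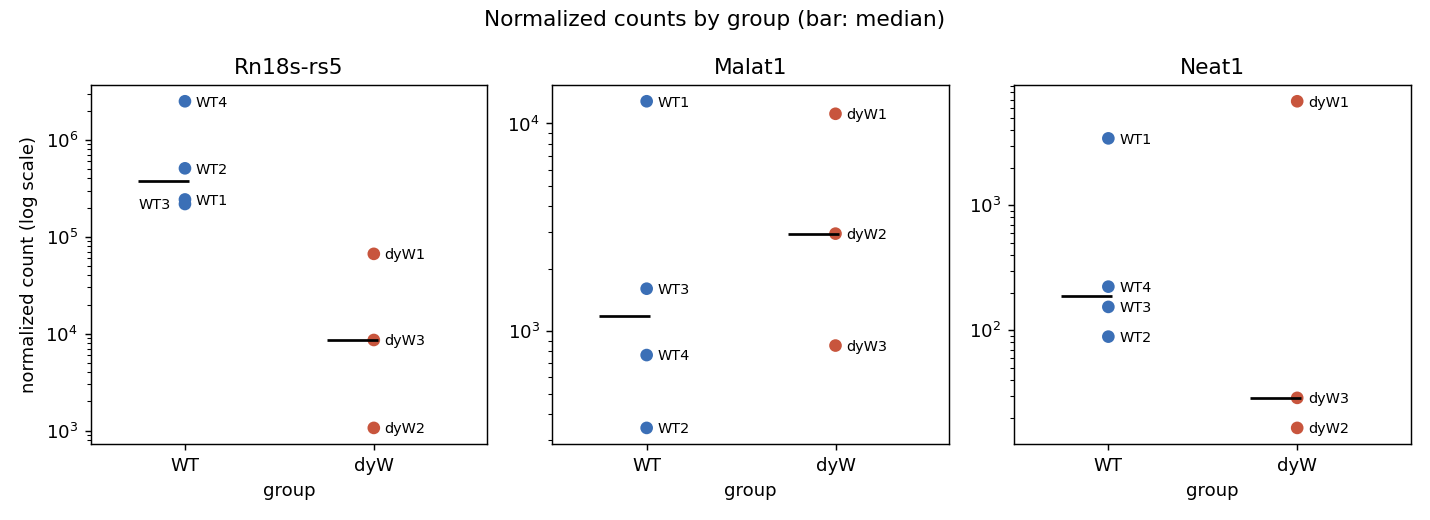
Normalized counts of the 3 RNAs by group (log scale, 1 labelled point per library, bars the group medians). The groups do not overlap for *Rn18s-rs5*, whereas WT1 and dyW1 stand far above the other libraries for *Malat1* and *Neat1*.

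Per kilobase of exon, *Malat1* was above *Neat1* in every library. The ratio of their reads per kilobase was 10.6, 10.9, 29.6 and 9.76 in WT1 to WT4. It reached 4.66 in dyW1, 506 in dyW2 and 84.1 in the library labelled dyW3. The libraries labelled dyW held the extremes. Outside WT1, dyW1 and dyW2 the ratio divides by *Neat1* values within the low level described next, so its exact size there carries little. *Rn18s-rs5* and *Malat1* had no steady ratio either, with 0.362 reads of *Rn18s-rs5* per read of *Malat1* in dyW2 and 3254 in WT4.

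A reference for low values came from 1400 odorant and vomeronasal receptor genes, whose products serve the sensory neurons of the nose. Their median was 0.632 to 2.51 reads per kilobase in WT, 0 in dyW1 and dyW2, and 1.90 in the library labelled dyW3. *Malat1* had more reads per kilobase than every one of them in 6 libraries and more than 98.9% of them in the library labelled dyW3, where it stood at 222 reads per kilobase. *Neat1* stood above all of them in WT1 and dyW1 and above 99.2% in dyW2. In WT2 its 1.47 reads per kilobase lay above only 22.2% of the receptor genes, and in the library labelled dyW3 its 2.63 lay above 52.6%. The values for WT3 and WT4 were 84.9% and 80.8%. *Neat1* thus lay within the 5th to 95th percentile range of this low level in WT2, WT3, WT4 and the library labelled dyW3. With the receptor median subtracted, the log2 differences were −5.90 for *Rn18s-rs5*, 1.08 for *Malat1* and 0.57 for *Neat1*, so the sign of *Neat1* turned. In WT2 *Neat1* lay below the receptor median, so the subtraction set that library to 0, and the turned sign cannot be read apart from it.

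**Figure D3:**
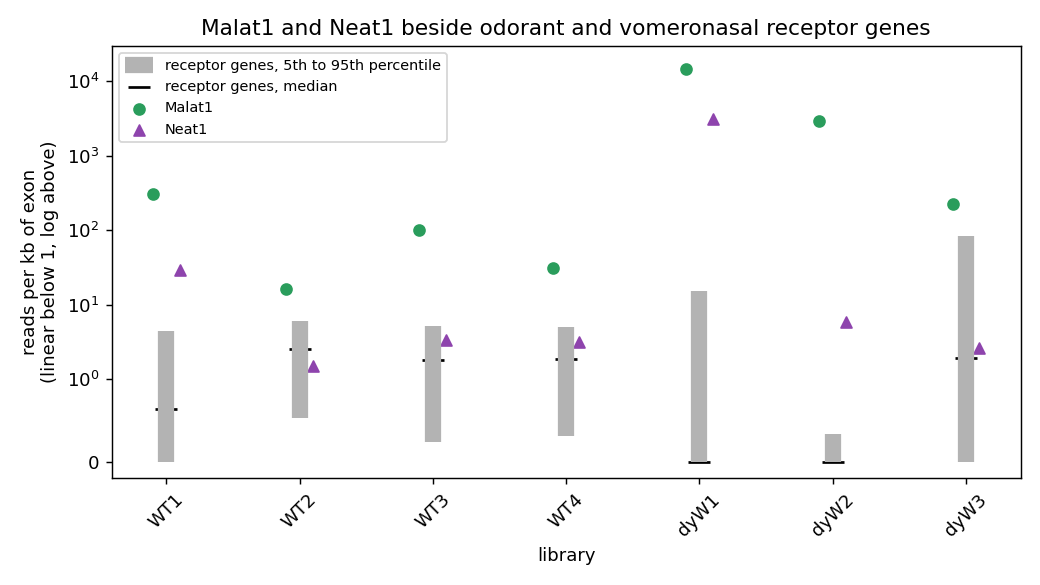
Reads per kilobase of exon of *Malat1* (circles) and *Neat1* (triangles) in each library beside 1400 odorant and vomeronasal receptor genes (grey bar from the 5th to the 95th percentile, black line the median, axis linear below 1 and logarithmic above). *Malat1* lies above the grey bar in all 7 libraries, and *Neat1* lies inside it in WT2, WT3, WT4 and the library labelled dyW3.

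Replicates of these RNAs varied more than those of most genes. The SD of log2(normalized count + 1) among the WT libraries was 1.62 for *Rn18s-rs5*, 2.24 for *Malat1* and 2.34 for *Neat1*, against a median of 0.66 over the 6111 genes with a mean of at least 50. Of those genes, 93.4%, 97.8% and 98.1% had a smaller SD in WT. In the libraries labelled dyW the SDs were 2.98, 1.85 and 4.76, against a median of 1.24, and 87.0%, 70.5% and 98.9% of genes had a smaller one. Among the 106 genes with a mean of at least 1000, 35.8%, 67.9% and 73.6% had a smaller SD in WT than *Rn18s-rs5*, *Malat1* and *Neat1*, and 81.1%, 63.2% and 87.7% in the libraries labelled dyW. Beside genes of high level, *Rn18s-rs5* thus varied less than most in WT and more than most in the other group.

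The cell type markers did not have the same makeup in every library. The summed CPM of 12 muscle fiber markers, such as the sarcomere genes *Acta1* and *Myh3*, were 1092 in WT1 and between 3060 and 17571 in the other WT libraries. They were 49.9 in dyW1, 4655 in dyW2 and 3663 in the library labelled dyW3. WT1 and dyW1, with the highest *Malat1* and *Neat1*, thus had the lowest muscle fiber sums. The 6 erythroid markers, the globin genes among them, summed to 6.37 in WT1 and 10.6 in dyW1 against 12465 to 96105 in the other 5 libraries.

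Other marker lists set WT1 and dyW1 apart from each other. The 6 cartilage markers summed to 174051 CPM in WT1, where the cartilage collagen gene *Col2a1* was the top gene with 16.6% of the reads, to 299 in dyW1 and to 8.53 to 2052 elsewhere. The 6 fibroblast markers summed to 1254 to 2740 in WT and to 11373 to 15606 in the libraries labelled dyW. The 5 endothelial markers summed to 87.8 to 183 in WT and 209 to 637 in the other group, the 5 immune markers to 40.4 to 136 and 77.5 to 164, and the 5 neural markers to 30.2 to 51.1 and 21.5 to 334. No marker was at 0 in all libraries of a group. The part of these cell types in the levels of the 3 RNAs was not tested.

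**Figure D4:**
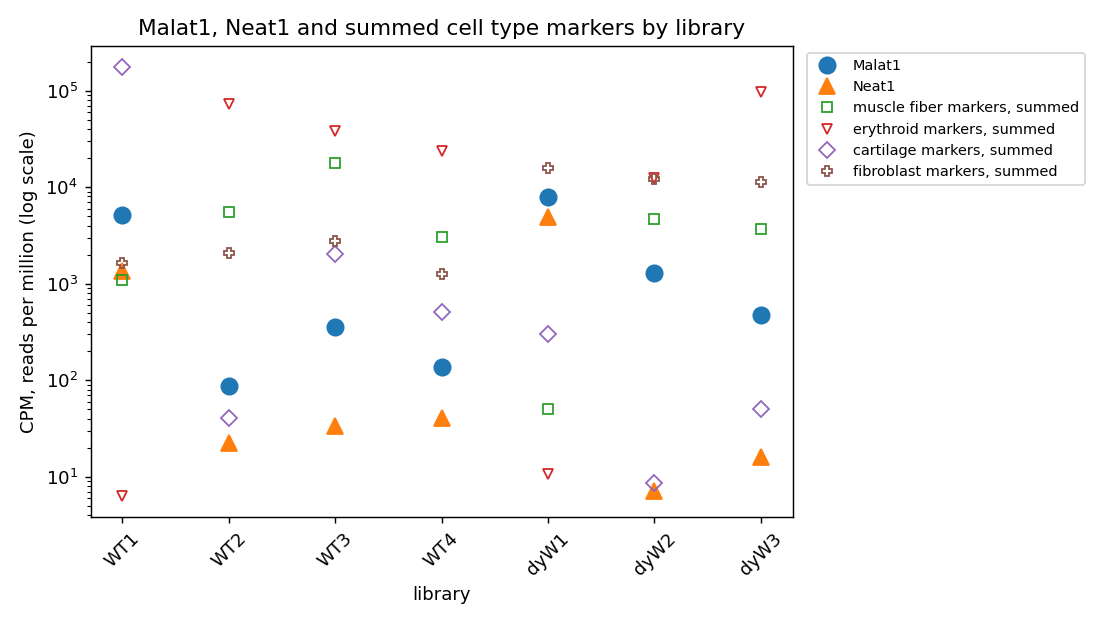
CPM (log scale) of *Malat1* and *Neat1* (filled symbols) and of summed markers of muscle fibers, erythroid cells, cartilage and fibroblasts (open symbols) in each library. The muscle fiber and erythroid sums are lowest in WT1 and dyW1, where *Malat1* and *Neat1* are highest.

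Over the 7 libraries the log2 CPM of *Malat1* and *Neat1* had a Pearson r of 0.75 and a Spearman rho of 0.39. This rests on WT1 and dyW1: without them, r was −0.75 over 5 libraries. Both values are descriptions over libraries that differ in depth and cell makeup. *Rn18s-rs5* had an r of −0.26 with *Malat1* and 0.42 with *Neat1* on the same scale, and −0.56 and −0.44 over 5 libraries without dyW2 and the library labelled dyW3, so the sign of the second turned.

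The genes whose profile over the 7 libraries was most like that of *Malat1*, by Pearson r of log2(normalized count + 1) among 6108 genes with a mean of at least 50, were *Plod2* (0.96), *Arid4a* (0.95), *Jak2* (0.95), *Ubtf* (0.94) and *Klf2* (0.93). *Plod2*, a collagen lysyl hydroxylase, had 608, 35.1, 142 and 40.9 normalized counts in WT1 to WT4, 437 in dyW1, 169 in dyW2 and 112 in the library labelled dyW3. *Jak2* encodes a cytokine receptor kinase, *Klf2* a zinc finger transcription factor and *Ubtf* the upstream binding factor of RNA polymerase I. All 5 kept an r of at least 0.88 when every library was scaled to the same total. These genes were picked for their likeness, so their r is a description.

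For *Neat1* the nearest profiles were those of *Alkbh5* (0.98), *Flrt2* (0.97), *Map2k3* (0.97), *Bhlhe40* (0.97) and *Zfp451* (0.97). *Flrt2*, a fibronectin leucine-rich transmembrane protein gene, had 224, 37.8, 57.4 and 62.9 normalized counts in WT1 to WT4, and 572, 22.8 and 38.6 in the libraries labelled dyW. *Alkbh5* encodes an RNA demethylase, *Map2k3* a kinase of the p38 pathway and *Bhlhe40* a transcriptional repressor. Their r with the same total ranged from 0.917 to 0.988. For *Rn18s-rs5* they were *Hadh* (0.98), *Cd151* (0.98), *Malt1* (0.97), *Crtc3* (0.97) and *Zfyve27* (0.96). Of these, *Hadh*, a mitochondrial fatty acid oxidation enzyme gene, dropped to an r of 0.27 and *Cd151*, a tetraspanin gene, to 0.49 when every library had the same total, while *Malt1* kept 0.95 and *Zfyve27* 0.94. *Malt1*, a paracaspase gene of immune signaling, had 101, 156, 88.2 and 170 normalized counts in WT1 to WT4, 34.6 in dyW1, 0.126 in dyW2 and 8.79 in the library labelled dyW3.

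The proteins and RNAs that work with these RNAs were compared between the groups with limma on log2(normalized count + 1), where a gene is called at a Benjamini-Hochberg adjusted *P*-value under 0.01 and an absolute log2 fold change over 1.5. Of the 25791 genes tested, 18.7% were called lower in the libraries labelled dyW and 0.0659% were called higher. At an adjusted *P*-value under 0.05, 29.6% were lower and 1.0% higher. Before adjustment, 41.5% were lower and 2.81% higher at a *P*-value under 0.05, and voom on the recovered reads called 20.6% lower and 0.264% higher at the first thresholds. Of 15 paraspeckle proteins, 0 were called lower and 1 higher (3 higher at 0.05, 0 lower and 4 higher before adjustment at 0.05, and 1 higher with voom, which was *Matr3* and not the gene called by limma), with a median log2 fold change of 0.85 against −1.99 for all tested genes. Only 6111 of the 25791 tested genes had a mean normalized count of at least 50, whereas the median over this list was 155. No comparison with genes of like level was made, so the distance to −1.99 cannot be read as particular to the list. The same limit holds for the lists that follow. *Pspc1*, which encodes a core paraspeckle protein, had 53.3, 48.5, 43.1 and 53.5 normalized counts in WT and 319, 196 and 234 in the libraries labelled dyW. The log2 difference was 2.28, with an SE of 0.52 and a limma adjusted *P*-value of 0.00947, and the call was lost when any 1 library was left out (adjusted *P*-value 0.012 without the library labelled dyW3), with adjusted *P*-values from 0.00538 to 0.173 over all settings tried. The other paraspeckle members named here did not pass the thresholds for a call. *Matr3*, a nuclear matrix protein gene, was at 1.95 (limma adjusted *P*-value 0.018), and the RNA-binding protein genes *Ewsr1* and *Hnrnpk* were at 1.18 and 0.78.

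Of 24 nuclear speckle proteins, 0 were called lower and 1 higher (9 higher at 0.05, 0 lower and 12 higher before adjustment at 0.05, and 8 higher with voom), with a median log2 fold change of 1.54. *Son*, which encodes a core protein of the speckles, had 219, 170, 191 and 220 normalized counts in WT and 1312, 1555 and 918 in the libraries labelled dyW. The groups did not overlap, and the log2 difference was 2.63, with an SE of 0.43 and a limma adjusted *P*-value of 0.00374. The call was lost without WT2 (adjusted *P*-value 0.0126), WT4 (0.0119), dyW1 (0.0122) or dyW2 (0.0175), held without the library labelled dyW3 (0.00512), and adjusted *P*-values ranged from 0.000708 to 0.143 over all settings. The splicing factor genes *Sf3b1* and *Srsf7* were at 1.82 and 2.10 (limma adjusted *P*-values 0.038 and 0.037), and the kinase gene *Clk1* was at 1.69 (0.076). With the same total for every library the median was 2.68 for this list and 1.99 for the paraspeckle proteins, and after quantile normalization 0.82 and 0.88.

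Of the 14 entries for factors that form the 3′ ends of *Malat1* and *Neat1*, such as RNase P subunits and the CCA-adding enzyme, 12 were tested and 0 were called in either direction with limma, also at 0.05, at an unadjusted *P*-value under 0.05 and with voom. Their median log2 fold change was −0.22, and its sign turned with the scaling, to 0.65 with the same total and 1.25 after quantile normalization. *Trnt1*, the CCA-adding enzyme gene, was at 1.45 (limma adjusted *P*-value 0.118), and the RNase P subunit genes *Rpp14* and *Rpp30* were at 1.03 (0.488) and 0.24 (0.874). *Mettl16*, whose product binds the triple helix of *Malat1*, had 123, 99.8, 39.0 and 59.8 normalized counts in WT and 51.4, 42.1 and 1.47 in the libraries labelled dyW, with a log2 fold change of −2.07 (0.183).

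**Figure D5:**
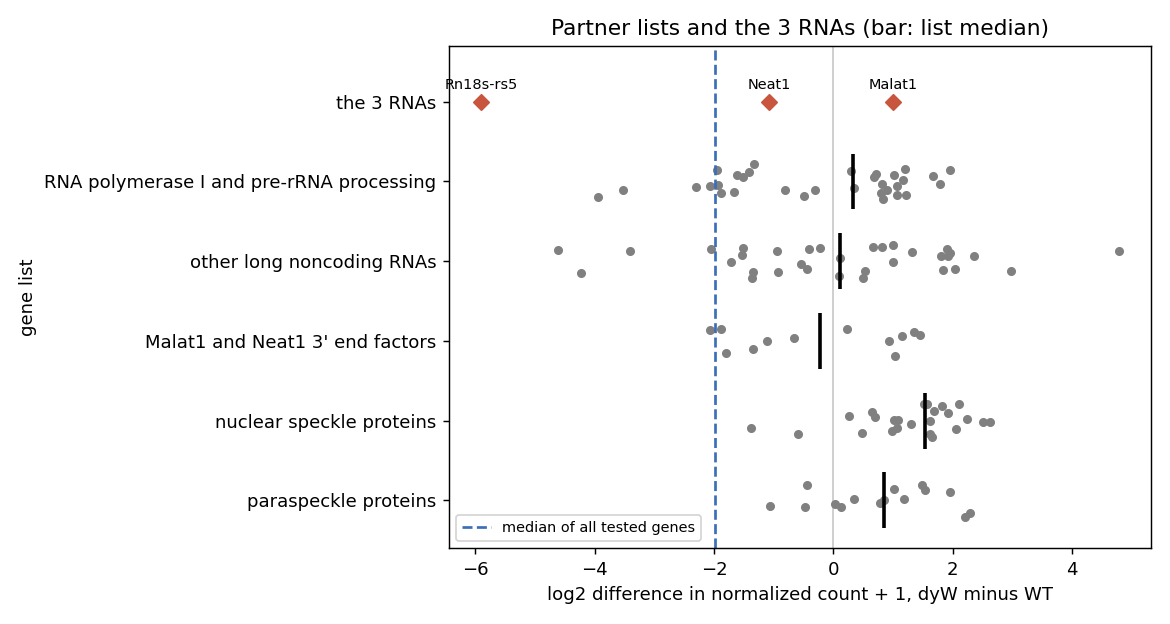
Log2 difference in normalized count + 1 between the libraries labelled dyW and WT for tested genes of 5 lists (grey points, black bar the list median) and for the 3 RNAs (red diamonds), with the median of all tested genes as a dashed line. The list medians lie between −0.22 and 1.54, right of the dashed line at −1.99, and *Rn18s-rs5* lies far left of it at −5.90. The dashed line covers genes of all levels, and no set of genes of like level is shown.

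Among 33 tested long noncoding RNAs other than the members, 1 was called lower and 0 higher, with a median log2 fold change of 0.11. At 0.05, 1 was lower and 5 were higher, and at an unadjusted *P*-value under 0.05, 2 were lower and 8 higher. With voom, 1 was called lower and 0 higher. The gene called lower by limma and by voom was *Pantr1*, with 32.0, 51.2, 22.6 and 9.44 normalized counts in WT, 0 in dyW1, 0.126 (1 read) in dyW2 and 0 in the library labelled dyW3 (limma adjusted *P*-value 0.00376). Its call was lost without WT2, WT4, dyW1 or dyW2 and held without the library labelled dyW3 (0.00366). The imprinted RNAs *H19*, *Rian* and *Kcnq1ot1* stood at −0.44, −0.42 and −0.22, with limma adjusted *P*-values of 0.631, 0.752 and 0.790. *Xist*, the X-inactivation RNA, which female cells make, had 15.99, 124, 297 and 37.8 normalized counts in WT and 4132, 461 and 3785 in the libraries labelled dyW, with a log2 fold change of 4.78 (limma adjusted *P*-value 0.0113). Of the 16 settings tried it was called in 1, without WT3 (0.0097), and dyW2 lay closer to WT3 than to the other libraries labelled dyW. The sex of the fetuses is not given, and its part in this difference was not tested.

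Few genes of the machinery that makes and trims ribosomal RNA passed the test. Of 32 tested genes for RNA polymerase I and pre-rRNA processing, 0 were called in either direction with limma, 2 were lower and 2 higher at 0.05, 2 and 4 at an unadjusted *P*-value under 0.05, and 0 and 3 were called with voom. Their median log2 fold change was 0.32. *Ncl*, which encodes nucleolin, had 331, 164, 168 and 142 normalized counts in WT and 513, 1081 and 506 in the libraries labelled dyW (log2 fold change 1.78, limma adjusted *P*-value 0.033). The nucleolar protein genes *Nop58*, *Npm1* and *Dkc1* were at 1.68 (0.032), 1.21 (0.063) and 1.07 (0.261). *Ncl* and these genes are named for having the highest means of the list. Many other members had negative log2 fold changes, down to −3.94, so the named genes do not stand for the list.

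Of 5 further ribosomal RNA rows, 2 passed the filter on low values. *mt-Rnr2*, the mitochondrial 16S rRNA, had 249211, 441829, 411037 and 732945 normalized counts in WT, and 13938, 69666 and 7379 in the libraries labelled dyW. It was called lower, at −4.47 on the log2 scale (SE 0.69, limma adjusted *P*-value 0.00372). The call was lost without WT2, WT4, dyW1 (0.0119) or dyW2, held without the library labelled dyW3 (−3.78, adjusted *P*-value 0.00915), and adjusted *P*-values ranged from 0.0022 to 0.745. *mt-Rnr1*, the mitochondrial 12S rRNA, had 16223, 83791, 84573 and 85750 normalized counts in WT and 2936, 24907 and 1759 in the other group, and did not pass for a call (log2 fold change −3.47, limma adjusted *P*-value 0.020). Its value in WT1 lay below that of dyW2, so the groups overlapped. Of 8 small structural RNA rows only *Rn7sk*, the RNA that holds the elongation factor P-TEFb inactive, passed the filter, at 21.3, 0, 4.10 and 3.15 normalized counts in WT and 37.8, 19.4 and 10.7 in the libraries labelled dyW (log2 fold change 2.17, limma adjusted *P*-value 0.154). Of 28 small nucleolar RNA rows, 2 passed the filter and 0 were called with limma, with voom or at an unadjusted *P*-value under 0.05.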

How the data were processed

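Per the labels and the methods, reads of 7 SMART-seq2 libraries (4 WT, 3 labelled dyW) were trimmed with Cutadapt, aligned to GRCm39 with RNA STAR and assigned to genes with FeatureCounts when uniquely mapped. Tool versions and annotation release are not given in the sources used here. The authors deposited normalized counts, reads divided by 1 size factor per library. A second deposited table holds fold changes, standard errors and *P*-values of the authors' DESeq2 comparison and was not used. No value column was left without a sample (0 unmapped).

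Whole reads were recovered from the step of each library's values (100% whole within 0.05 of a read). Of the 31531 rows, 99.2% matched GENCODE M39. *Malat1* and *Neat1* were found by symbol and *Rn18s-rs5*, whose symbol cell is empty, by gene ID. WT and dyW were compared on log2(normalized count + 1), for genes averaging 5 or more, by the moderated linear model of limma 3.58.1 (R 4.3.3; trend allowed), and *P*-values were adjusted after Benjamini and Hochberg. The pipeline was tested on simulated data. These had the same makeup in every library apart from genes lowered in 1 group, and were scaled to the same total. The simulation therefore does not cover calls made with the deposited scaling. Shares, Wilson intervals and figures were made with scipy 1.17.1, numpy 2.4.6, matplotlib 3.10.9 and pandas 2.3.3 in Python 3.11.15. *P*-values measure the spread between the libraries.

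Members, gene lists, markers and tests were chosen with earlier results of these data known. Named genes are the members, *Lama2*, the 5 nearest profiles of each member, and in each list the 4 with the highest mean and up to 4 called genes. 1 gene that the rule names is not reported here. Settings varied were the pseudocount (0.1, 10), the filter (none, a mean of 50 or more), the scaling (quantile, the same total), a replicate block, an adjusted *P*-value under 0.05 and each library left out. Voom on the recovered reads was added after seeing the data.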

Additional observations from a re-analysis of the deposited data

Results flagged for a closer look

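In the 4 WT libraries, 5 of the 6 quantities looked at stood out by Dixon's test for a value far from the others. The values were taken without a log, which widens such distances, and were not tested on the log2 scale. The libraries labelled dyW were not tested, so the result does not set WT apart from them. Chance marks about 1 in 20 groups, but the 3 RNAs were chosen with their values known and the quantities overlap, so the count is a description and is not set against that rate. The distance of the extreme library to its nearest neighbour, divided by the whole range, passed the 95% critical value in each. For *Rn18s-rs5*, WT4 lay far above the other WT libraries in normalized counts (0.873). For *Malat1*, WT1 lay far above the others in normalized counts (0.899) and in percent of reads (0.947). For *Neat1*, WT1 again lay far above, at 0.960 in normalized counts and 0.987 in percent of reads. The 5 results come from 2 libraries, and those of 1 gene share their reads. The library WT1 also had the fewest reads on genes, 470804, and the highest cartilage marker sum, and their part in its *Malat1* and *Neat1* values was not tested.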

How the results depend on the processing

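The SDs of the 3 RNAs are so wide that no alternative moved a difference by more than 1 SD, even where the sign of *Neat1* turned, so this says little about stability. Filters leave the differences as they are. Voom gave −4.80, 2.68 and 0.99 for *Rn18s-rs5*, *Malat1* and *Neat1*, and quantile normalization gave −3.64, 1.53 and −0.78. Of the counts of calls, 212 of 288 stayed within 1.5 times. Counts of 0 that stayed 0 are among those kept, and most list counts were 0 at the start, so this says little about stability. The 4830 genes called lower became 0 with a pseudocount of 10, the same total or a mean of at least 50, 2 with quantile normalization and 7625 at an adjusted *P*-value under 0.05. The 17 called higher became 41 with a pseudocount of 0.1, 10 without a filter, 68 with voom, 259 at 0.05, and 0 with a pseudocount of 10, the same total, quantile normalization or a mean of at least 50. Limma still gave 10626 genes at an unadjusted *P*-value under 0.05 with a pseudocount of 10, 10261 with the same total and 1253 with a mean of at least 50. Without 1 library the counts ran from 0 to 6717 lower and 0 to 25 higher: without WT2, WT4 or dyW2 0 were lower (9112, 9170 and 9560 genes at an unadjusted *P*-value under 0.05), and without dyW1 1817 were. The single calls (paraspeckle and speckle higher, long noncoding and ribosomal RNA lower) became 0 with a pseudocount of 10, the same total, quantile normalization or a mean of at least 50, and the paraspeckle call also without a filter. At 0.05 the counts were 3 and 9 higher, 5 long noncoding RNAs higher, 2 and 2 for RNA polymerase I and 2 ribosomal RNAs lower. Speckle proteins called higher were 4 with a pseudocount of 0.1 and 8 with voom, which also called 3 RNA polymerase I genes higher. Leaving out libraries gave 0 to 0 paraspeckle, 0 to 2 speckle and 0 to 2 long noncoding RNAs higher, and 0 to 4 long noncoding RNAs, 0 to 2 RNA polymerase I genes and 0 to 1 ribosomal RNAs lower. The replicate numbers showed no clear pairing of the libraries. Correlations of same-numbered libraries were 0.147, −0.049 and −0.088, within the range of −0.122 to 0.225 for libraries of unlike number. Shared litters or processing cannot be seen from these values. With a replicate block, 1 gene was called lower and 0 higher (8843 at an unadjusted *P*-value under 0.05), all list calls became 0, and the member differences were −5.14, 0.66 and −1.25, which are those without WT4, the library with no partner. The cause of these moves was not tested. *Neat1* had the fewest reads of the 3 RNAs in each library, down to 33 in WT2, which limits its values.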
